A study of Camelina sativa with 159 samples.

Results

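SUPPRESSOR OF OVEREXPRESSION OF CO 1 (SOC1) is represented here by Csa04g063650.1 on chromosome 4 and Csa06g052060.1 on chromosome 6, the copies that the study names in Camelina sativa, an oilseed with 3 sub-genomes. They are 2 of the 94495 transcript rows of the raw count file, were taken by ID, and are called the chromosome 4 and the chromosome 6 copy below. The study names them as members of a co-expression module related to FT (flowering time) that it built on these same samples, so neither their relation to FT nor their likeness to each other is independent of that choice. The third SOC1 copy of this species is not analysed here. SOC1 encodes a MADS-box transcription factor that, in Arabidopsis, gathers signals from day length, cold, age and gibberellin and promotes the transition to flowering. In Arabidopsis it is repressed by FLOWERING LOCUS C and activated downstream of FLOWERING LOCUS T, and its transcript is found in leaves as well as in the shoot apex.

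RNA was sequenced from expanded true leaves of young greenhouse seedlings, while FT (the days until 50% of plants flowered) comes from field trials of the same accessions. The labels name no treatment, and each accession is its own genotype. Of the 48 accessions with an FT, 44 flowered under 48 days (43 to 47.9 days, early accessions) and 4 flowered later: CN 113662 at 52 days, CN 113692 at 55 days, CN 113691 at 59.4 days and CN 113660 at 61.9 days (late accessions). These FT values differ from those in the study's text for a single season. There CN 113690, at 43 days here, flowered later, and CN 113660 followed it by fewer days. Libraries with at least 200000 counts were described, which kept 137 early and 11 late libraries with totals of 444464 to 15246389 counts, with a median of 4389024, and left out 10 libraries. By their codes the libraries belong to 3 series (Cs, S001C, S0013), whose meaning is not stated, and the 11 late libraries are all of series Cs. In bulk leaf RNA, fewer cells of a type and less RNA per cell cannot be told apart, and the leaf label was not checked because the sources used here pair no leaf marker with an ID. Several libraries of an accession are labelled as separate samples, but not by plant, so the spread between them may be partly technical.

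Of the SOC1 copies analysed, both were lower in the late accessions. Levels are given as counts per 1000000 (CPM) after TMM scaling, which adjusts library sizes so that most genes are equal between libraries. Over accession means the chromosome 4 copy was at 17.8 ± 4.45 CPM (SD, n = 44) in early and 1.63 ± 2.40 CPM (SD, n = 4) in late accessions, so that the late mean was 9.17% of the early mean. The chromosome 6 copy was at 33.04 ± 12.3 CPM (SD, n = 44) in early and 7.74 ± 2.34 CPM (SD, n = 4) in late accessions, 23.4% of the early mean. Given how the study chose these genes, this comparison is not independent evidence of its direction.

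In CN 113660, the latest accession, the chromosome 4 copy had 0, 2 and 1 reads in the 3 libraries, or 0, 0.302 and 0.299 CPM. Its chromosome 6 copy stood at 7.64, 3.93 and 7.77 CPM in the same libraries. The chromosome 4 copy was therefore close to undetected there, while the other copy was read 26 to 33 times in each library.

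In CN 113692 the chromosome 4 copy had 2 reads in one library (0.467 CPM) and 0 in the other, and the chromosome 6 copy was at 7.93 and 7.41 CPM. The library with 0 reads is shallow, with 646716 counts, and a count of 0 there allows up to 4.64 reads per 1000000. The library of CN 113660 with 0 reads holds 4406897 counts and allows up to 0.681 reads per 1000000. Both limits and the intervals given below cover counting error only.

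CN 113691 had 9, 2 and 2 reads of the chromosome 4 copy, or 1.61, 0.565 and 0.503 CPM. Its chromosome 6 copy was at 6.27, 4.81 and 6.29 CPM. Over pooled reads the chromosome 4 copy had 0.200 reads per 1000000 in CN 113660 (95% exact Poisson interval 0.0412 to 0.583), 0.403 in CN 113692 (0.0488 to 1.45) and 0.952 in CN 113691 (0.507 to 1.63). The intervals of neighbours in this order overlap, although each library of CN 113660 was below each library of CN 113691, and the differences between these accessions were not tested.

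CN 113662, the least late of the 4, had libraries that disagreed. The chromosome 4 copy was at 0.935 CPM in library Cs035, 8.60 CPM in Cs040 and 6.08 CPM in Cs147. The chromosome 6 copy was at 3.43, 16.05 and 13.7 CPM in these libraries. Cs035 stood with the later accessions for both copies, and the other 2 libraries stood between them and most early libraries.

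Among early libraries the lowest, median and highest levels were 1.23, 17.3 and 35.6 CPM for the chromosome 4 copy and 8.64, 30.6 and 113 CPM for the chromosome 6 copy. Means of late and early accessions did not overlap for either copy: the highest late mean of 5.20 CPM (CN 113662) was below the lowest early mean of 8.86 CPM (CN 113694) for the chromosome 4 copy, and 11.1 CPM was below 18.7 CPM (CN 30475) for the chromosome 6 copy. How many of all genes separate in this way was not counted, so the separation is not shown to be particular to these copies. Single libraries did overlap. Of 137 early libraries, 5 were at or below the highest late library for the chromosome 4 copy and 3 for the chromosome 6 copy, and S001C2D of CN 113672 and Cs103 of CAM 276 were in both counts.

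**Figure D1:**
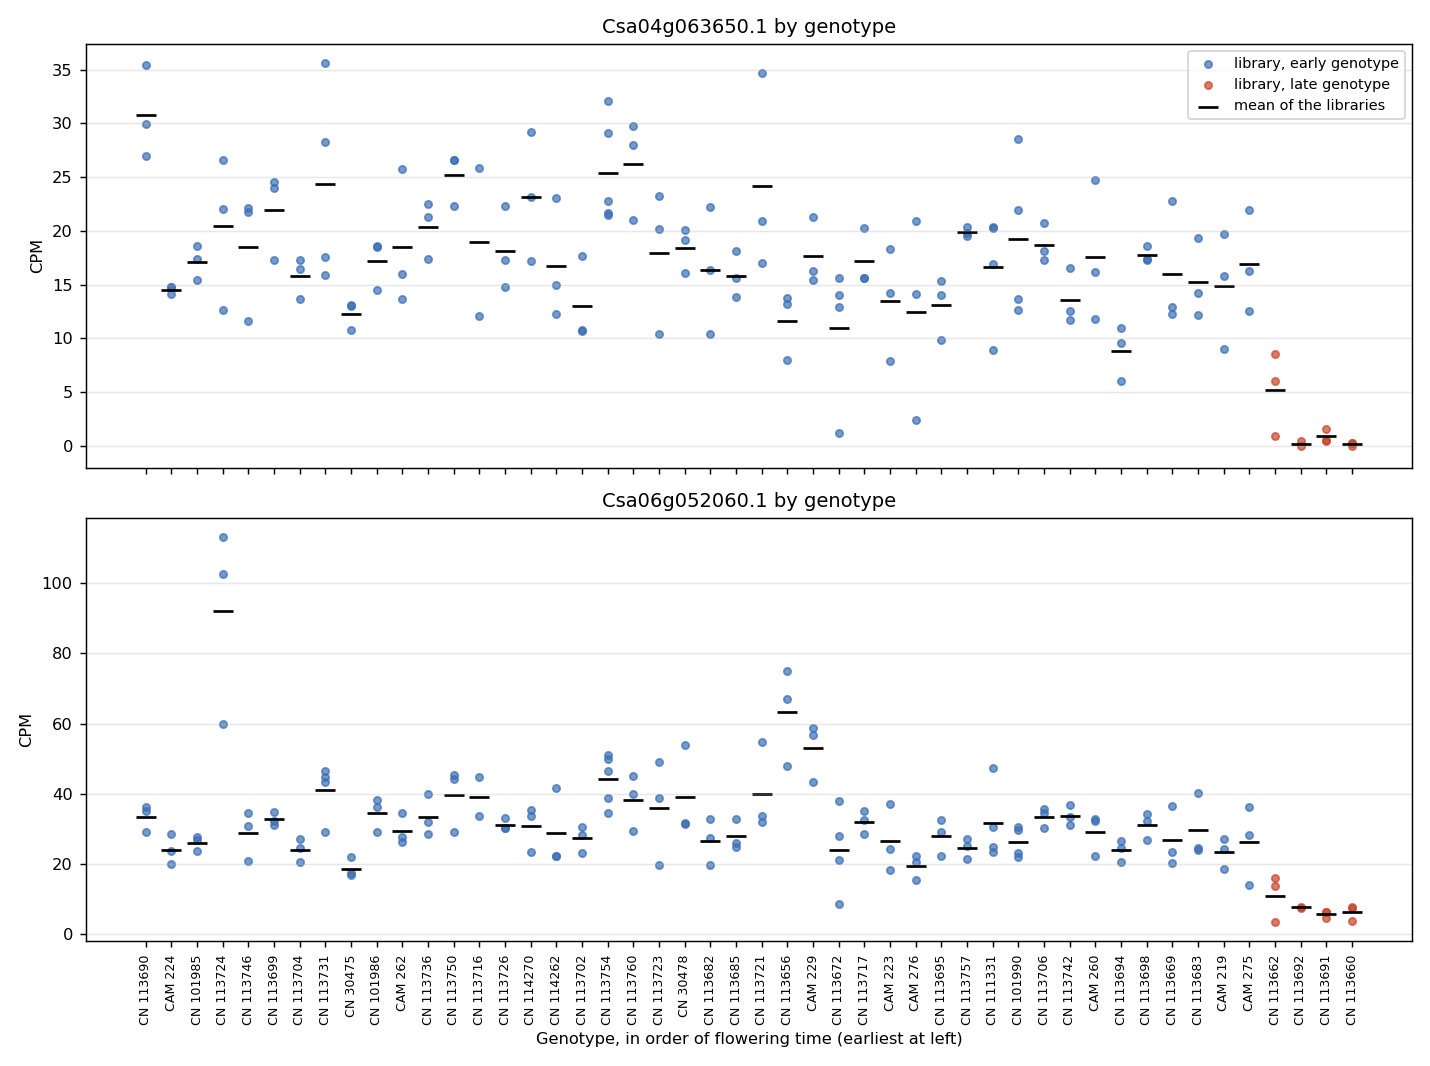
CPM of each SOC1 copy in each library (points, y axis) by accession in order of FT (x axis), with the mean of the libraries as a black bar and late accessions in red. Late means of at most 5.20 CPM (Csa04g063650.1) and 11.1 CPM (Csa06g052060.1) lie below all early means, while CN 113724 reaches 91.9 CPM for Csa06g052060.1.

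In edgeR's quasi-likelihood test on counts summed per accession, the chromosome 4 copy was lower in late accessions by a log2 fold change of -3.21 (SE 0.37, adjusted p = 2.0e-08) and the chromosome 6 copy by -2.06 (SE 0.29, adjusted p = 2.6e-06), where the median over all genes tested was -0.015. Thus 2 of the 2 copies analysed were called lower, against 8.27% of the 52305 genes tested. CN 113662 decides how large the first difference is: without it the chromosome 4 copy gave -4.97 and the chromosome 6 copy -2.34.

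The split of reads between the copies also differed. The share of the chromosome 4 copy in the reads of both copies does not depend on library size. Transcript lengths were not used here, so the share compares accessions and not the level of one copy with the other. How reads matching both copies were counted is not given in the sources used here, which makes the split itself uncertain.

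That share was 35.7% ± 5.89 (SD, n = 44) in early and 13.6% ± 13.03 (SD, n = 4) in late accessions, a difference of -22.1 percentage points (two-sided exact permutation test over accessions, p = 6.17e-05, where the smallest possible p is 5.14e-06). It was 3.41% in CN 113660 (95% Wilson interval 1.17 to 9.55), 4.88% in CN 113692 (1.35 to 16.1), 14.4% in CN 113691 (8.64 to 23.2) and 31.7% in CN 113662 (26.1 to 38.01). In CN 113662 the share therefore lay inside the early range, with 6 early accessions below it, whereas 0 early accessions were below CN 113691. Leaving out 1 late accession at a time gave differences of -18.7 to -28.1 points, and the p-value stayed at 7.4e-04 or below.

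**Figure D2:**
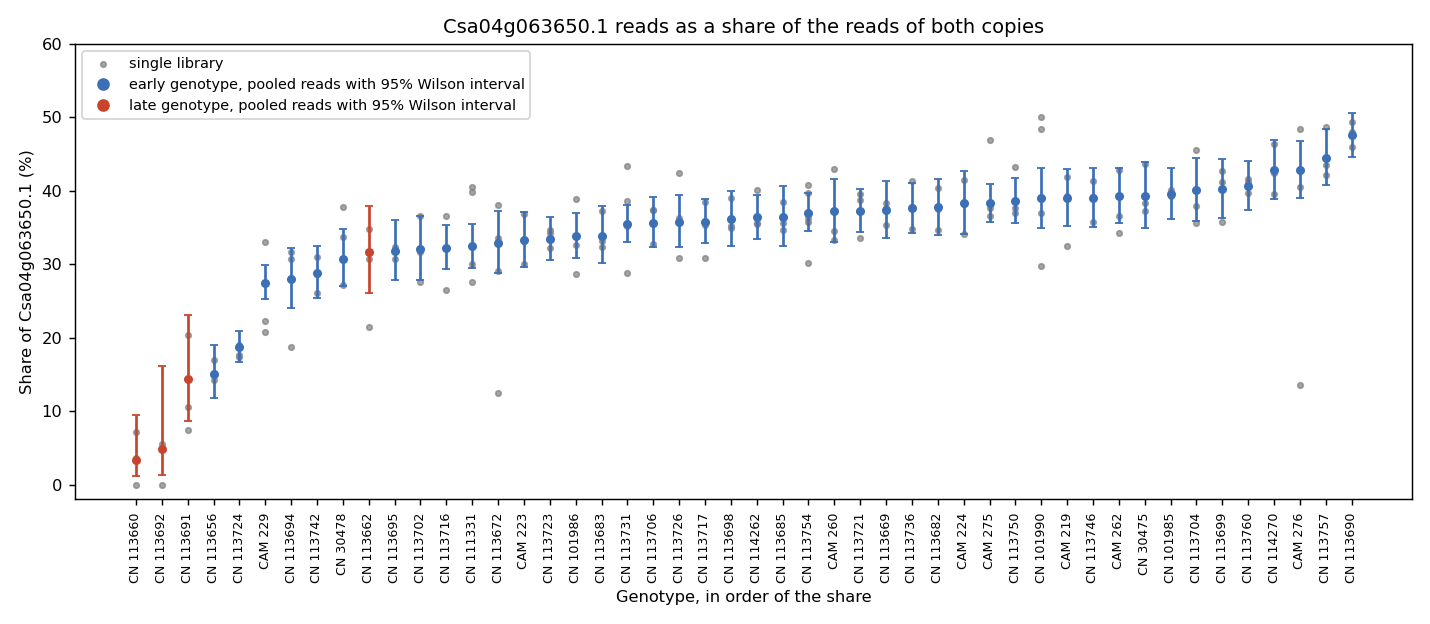
Share of Csa04g063650.1 in the reads of both SOC1 copies (y axis, %) for each accession in order of the share (x axis), as pooled reads with 95% Wilson intervals, late accessions in red and single libraries as grey points. The 3 latest accessions take the lowest places at 3.41% to 14.4%, CN 113656 and CN 113724 follow at 15.1% and 18.7%, and CN 113690 is highest at 47.6%.

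Within the early accessions both copies varied. The highest accession mean was 3.47 times the lowest for the chromosome 4 copy and 4.90 times for the chromosome 6 copy. Tested on single libraries, the 44 accessions differed by more than their own libraries for the chromosome 4 copy (edgeR, adjusted p = 0.0102) and the chromosome 6 copy (adjusted p = 1.99e-10). That is 2 of 2 copies, against 51.1% of 49671 genes tested, so a difference between accessions was not rare, and by F statistic the copies ranked only 19983rd and 4642nd. The SD between libraries of an accession was 0.52 log2 units for the chromosome 4 copy and 0.36 for the chromosome 6 copy, next to SDs of 0.39 and 0.41 between accession means. In order of level, 41 of 43 pairs of neighbouring early accessions for the chromosome 4 copy and 42 of 43 for the chromosome 6 copy differed by less than 1 standard error of their difference. Sorting many accessions by level places close values side by side, so this shows only that the order of neighbours is not resolved. It does not measure whether accessions differ. The median coefficient of variation between libraries was 24.9% and 18.3%, where counting alone would give 11.2% and 8.67%.

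CN 113690, the earliest accession at 43 days, had the highest level of the chromosome 4 copy. Its libraries were at 35.5, 29.9 and 26.9 CPM, while the chromosome 6 copy was at 36.3, 35.2 and 29.2 CPM, close to the early mean. CN 113760 at 26.2 ± 4.63 CPM (SD, n = 3) and CN 113754 at 25.4 ± 4.84 CPM (SD, n = 5) followed for the chromosome 4 copy. CN 113690 also had the highest share of that copy, at 47.6% (95% Wilson interval 44.6 to 50.6) with 46.0% to 49.4% in single libraries, followed by CN 113757 at 44.5% and CAM 276 at 42.9% of pooled reads. The place of CAM 276 rests on its deepest library, since the mean of its library shares was 34.2%.

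CN 113724 had the highest level of the chromosome 6 copy. Its libraries were at 59.9, 113 and 103 CPM for that copy and at 12.7, 26.6 and 22 CPM for the chromosome 4 copy. CN 113656 was second, with the chromosome 6 copy at 47.8, 66.9 and 74.95 CPM and the chromosome 4 copy at 7.96, 13.7 and 13.2 CPM. In both accessions every library was above the early mean of the chromosome 6 copy.

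Those accessions also had the lowest early shares of the chromosome 4 copy. The share was 15.1% in CN 113656 (14.3% to 17.05% in single libraries) and 18.7% in CN 113724 (17.5% to 19.1%). CAM 229 was the third on both measures, with a chromosome 6 level of 52.9 ± 8.41 CPM (SD, n = 3) and a share of 27.5%, but its libraries ranged from 20.8% to 33.02%. A low share in these early accessions thus came with a high chromosome 6 copy, whereas in the 3 latest accessions it came with both copies low. In CN 113656 the chromosome 4 mean of 11.6 CPM was also below the early mean of 17.8 CPM.

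The share differed among early accessions by more than among their libraries (permutation test, p = 1e-05, the smallest that 100000 permutations can give), with 72.2% of the weighted sum of squares lying between accessions. Part of it lies there even where accessions do not differ, and that part was not computed. With library shares unweighted the figure was 63.6%. Without CN 113656 and CN 113724 it was 56.8% (weighted), with a permutation p of 2e-04. The tests of single copies without these accessions gave an adjusted p of 0.0148 for the chromosome 4 copy and 3.5e-04 for the chromosome 6 copy (edgeR). That exclusion was chosen after the levels had been seen.

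At the low end, CN 113694 had the chromosome 4 copy at 6.09, 10.9 and 9.56 CPM and the chromosome 6 copy at 26.5, 24.7 and 20.7 CPM. CN 113672 and CN 113656 followed for the chromosome 4 copy with means of 10.97 and 11.6 CPM. The chromosome 6 copy was lowest in CN 30475, at 17.4, 21.9 and 16.97 CPM, followed by CAM 276 at 19.5 ± 3.51 CPM (SD, n = 3) and CAM 219 at 23.5 ± 4.35 CPM (SD, n = 3).

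**Figure D3:**
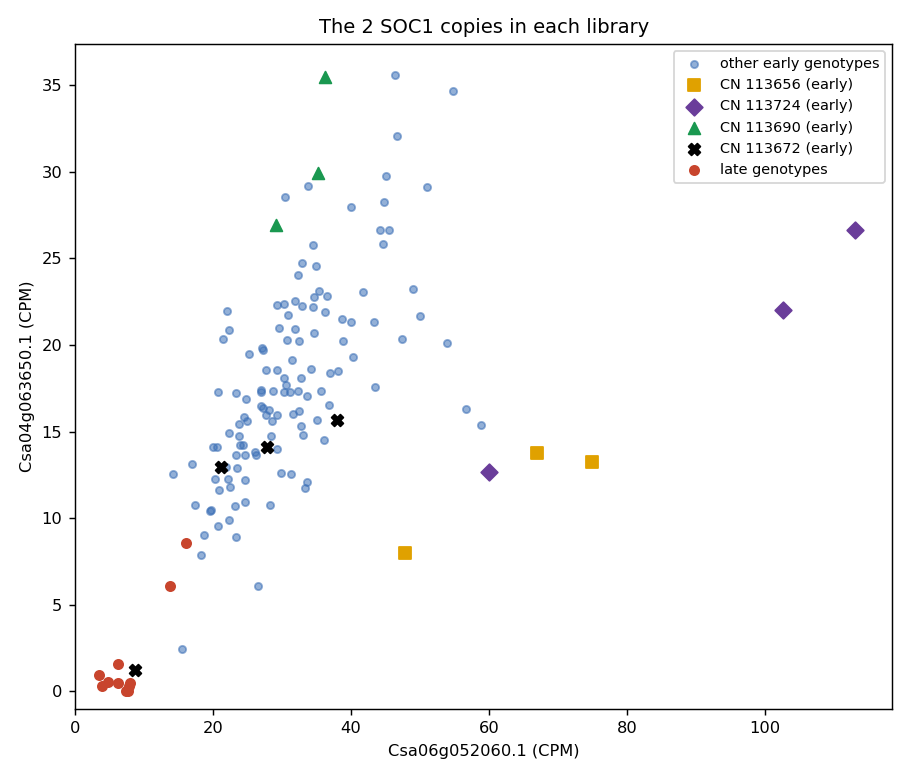
Level of Csa04g063650.1 (y axis, CPM) against Csa06g052060.1 (x axis, CPM), 1 point per library, with 4 early accessions marked and late accessions in red. CN 113724 and CN 113656 lie to the right at 47.8 to 113 CPM of Csa06g052060.1, and 1 library of CN 113672 lies among the late libraries at 1.23 and 8.64 CPM.

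Single early libraries stood far below the others of their accession. In CN 113672 the chromosome 4 copy was at 12.9 CPM in Cs053, 15.6 in S001C1C, 14.1 in S001C24 and 1.23 in S001C2D. The chromosome 6 copy was at 21.1, 37.98, 27.9 and 8.64 CPM in these libraries. S001C2D therefore had late-like levels of both copies, from 7 and 49 reads in a library of 5632084 counts, and its share of 12.5% (95% Wilson interval 6.19 to 23.6) was below the 29.2% to 38.02% of the other 3 libraries.

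Over a wider set of genes that library did not stand with the 3 latest accessions. A score over 4164 genes that were lower in the 3 latest accessions, set to 0 at the early mean and 1 at the late mean in a fit without CN 113662 and CN 113672, was 0.296 in S001C2D, 0.176 to 0.272 in the other libraries of CN 113672, at most 0.389 in any early library and 0.824 to 1.30 in the 8 libraries of the 3 latest accessions, on which the genes had been chosen. On the same scale the libraries of CN 113662 scored 0.763 (Cs035), 0.315 (Cs040) and 0.300 (Cs147), so that S001C2D scored close to Cs040 and Cs147 of this late accession, and Cs035 stood nearest to the later accessions. Of 161 other genes of the study's FT-related module that were measured at a mean of 1 CPM or more in the other 3 libraries, 75 (46.6%) were lowest in S001C2D, next to 20.2% of all 44792 genes so measured. The study chose that module on these samples.

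CAM 276 also had libraries that disagreed, but mainly for the chromosome 4 copy. Its chromosome 4 copy was at 2.45 CPM (9 reads) in Cs103, 14.1 in Cs126 and 20.9 in S001C49. The chromosome 6 copy was at 15.5, 20.6 and 22.3 CPM, so that the share was 13.6% in Cs103 and 40.6% and 48.4% in the other libraries.

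The series of a library moved with both copies. Within 30 early accessions that have libraries of both series, the chromosome 4 copy was higher in S001C than in Cs libraries by 0.39 log2 units (SE 0.092, adjusted p = 7.67e-04, edgeR) and the chromosome 6 copy by 0.34 (SE 0.068, adjusted p = 7.2e-05). That is 2 of 2 copies, against 11.3% of genes called higher, in a comparison added after the levels had been seen. With Cs libraries only, the late accessions were lower by log2 fold changes of -3.06 for the chromosome 4 copy and -1.87 for the chromosome 6 copy.

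Within the early accessions the levels were next set against FT, which spans 43 to 47.9 days there. FT falls into separate clusters of early and late accessions, so no relation over all 48 was computed. The study chose the copies from a module related to FT over accessions that include these 44, so the p-values below are not independent evidence of a relation. For the chromosome 4 copy, later accessions had lower levels, with Pearson's r = -0.44 (permutation p = 0.0025, adjusted p = 0.010 over 4 relations, n = 44) and Spearman's rho = -0.40 (permutation p = 0.00741, adjusted p = 0.0296). With CN 113690 and CAM 219 left out, r was -0.35 (permutation p = 0.0226). These 2 were taken for their distance from the median FT, but CAM 275 has the same FT as CAM 219 and was kept. Within library series the relation had the same sign but passed 0.05 only in Cs: r = -0.36 in Cs (permutation p = 0.034, n = 34), -0.18 in S001C (permutation p = 0.30, n = 35) and -0.35 in S0013 (permutation p = 0.32, n = 10).

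For the chromosome 6 copy r was -0.24 (permutation p = 0.12, adjusted p = 0.16) and rho was -0.25 (permutation p = 0.10, adjusted p = 0.10), and without the same 2 accessions r was -0.21. In the series Cs, S001C and S0013 its r was -0.26, -0.19 and 0.010. The summed level of both copies had r = -0.33 (permutation p = 0.027, adjusted p = 0.053) and rho = -0.31 (adjusted p = 0.083), with r = -0.26 without the 2 accessions and -0.35, -0.19 and -0.17 within the series. The share of the chromosome 4 copy had r = -0.16 (permutation p = 0.29, adjusted p = 0.29) and rho = -0.27 (adjusted p = 0.10), with r = -0.10 without the 2 accessions and -0.042, 0.038 and -0.54 within the series.

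When all genes were fitted together, neither copy passed. The slope was -0.144 log2 units per day for the chromosome 4 copy (SE 0.042, unadjusted p = 0.00113, adjusted p = 0.162, edgeR) and -0.116 for the chromosome 6 copy (SE 0.060, adjusted p = 0.420). Thus 0 of 2 copies were called, against 0.0216% of 50816 genes, or 11 genes, while 6444 genes had an unadjusted p under 0.05. The relation of the chromosome 4 copy with FT therefore passed among the 4 relations computed for the copies and not among all genes.

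**Figure D4:**
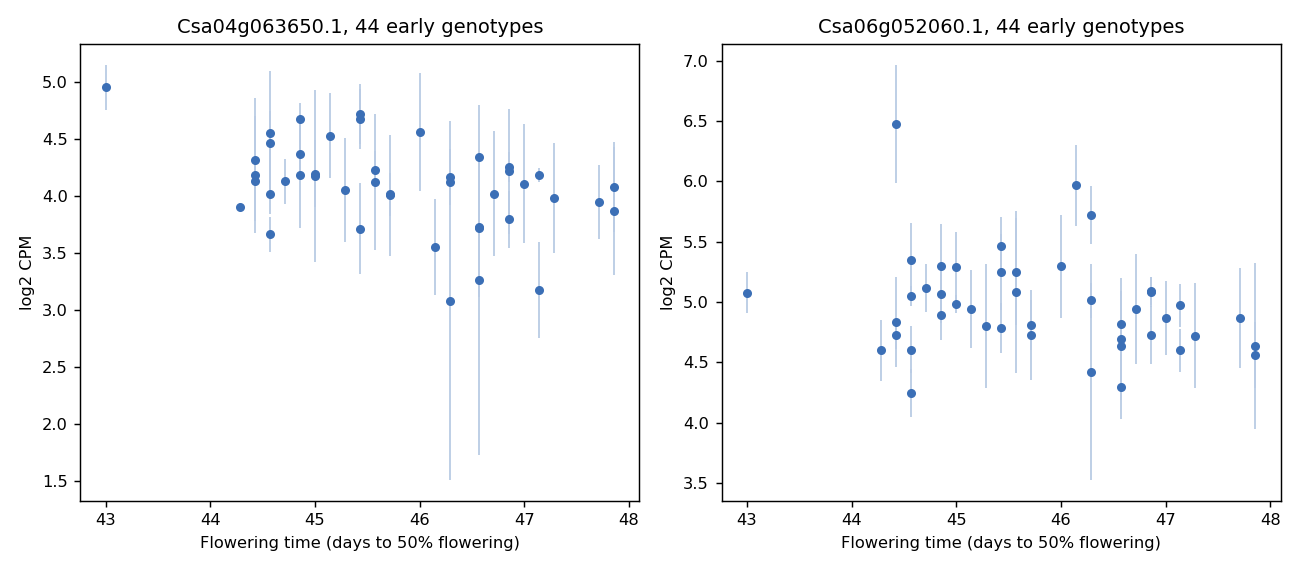
Mean log2 CPM of each SOC1 copy (y axis) against FT in days to 50% flowering (x axis) in the 44 early accessions, with the SD between libraries as bars. Pearson's r is -0.44 for Csa04g063650.1 and -0.24 for Csa06g052060.1, and the earliest accession, CN 113690, has the highest Csa04g063650.1 level.

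The levels of the copies were correlated among early accessions. Since the study took both from 1 co-expression module built on these samples, a positive correlation was selected for, and the p-values are not independent evidence of it. Pearson's r between their log2 CPM was 0.46 (permutation p = 0.00214, n = 44) and Spearman's rho was 0.62 (permutation p = 3e-05), in 1 relation computed. Without CN 113672 and CN 113694, the accessions farthest from the median of the chromosome 4 copy, r was 0.40 (permutation p = 0.0097), and without CN 113656 and CN 113724, left out after their levels had been seen, it was 0.69 (permutation p = 1e-05). By series r was 0.31 in Cs (permutation p = 0.070), 0.48 in S001C (permutation p = 0.0050) and 0.78 in S0013 (permutation p = 0.0084), so that the relation did not pass 0.05 within Cs.

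Deviations of single libraries from their accession's mean also went together, with r = 0.73 over 137 libraries and 0.67 without S001C2D. These are descriptions, since both values of a point come from 1 library and share its depth and scaling. Series was not removed from the deviations, and within 30 early accessions both copies were higher in S001C than in Cs libraries. How much of this r goes with series was not tested. Neither copy was the other's closest match. For each copy, the other copy and 45715 further genes with a mean of at least 1 CPM were ordered by r over the early accessions. The chromosome 4 copy came 184th among the genes most like the chromosome 6 copy. The chromosome 6 copy came 357th among those most like the chromosome 4 copy.

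Other genes were compared with the mean log2 CPM of both copies over the 44 early accessions, as a description without a test. Among 45715 genes with a mean of at least 1 CPM, r had a median of -0.0043 and a 99th percentile of 0.43, and 4 genes reached 0.6. The highest was Csa17g010440.1 with r = 0.70, followed by Csa09g050380.2 with r = 0.64, and the lowest were Csa12g026230.1 with r = -0.63 and Csa09g004620.1 with r = -0.61. The files do not pair these IDs with names, and no function is given for them here. The 10 highest genes had r from 0.58 to 0.70, and 1 of them belongs to the study's FT-related module.

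Over library deviations within early accessions the 10 genes had a median r of 0.33 (range -0.061 to 0.66), where all genes had a median of -0.022. Series was not removed from these deviations, nor from those behind the values within accessions given below. Because the genes were chosen as the highest over accession means, lower values in another measure follow from the choice. In Cs libraries alone their median r was 0.41, in S001C libraries alone 0.61, and without S001C2D it was 0.57. In the comparison of late with early accessions, 7 of these 10 genes were called lower, beside the 8.27% of all genes given above. The late accessions did not enter r, but they were among the samples on which the study chose the copies. The early accessions entered both r and this comparison, so the count is not independent evidence.

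SNZ (SCHNARCHZAPFEN, Csa05g014000.1), an AP2-type repressor of flowering in Arabidopsis, was 15th in this order with r = 0.57 between accessions and 0.49 within them. The chromosome 10 copy of AGL19 (Csa10g020140.1), a MADS-box gene that promotes flowering in Arabidopsis and a close relative of SOC1, was 490th with r = 0.43, and had r = 0.55 within accessions. The chromosome 12 copy of AGL19 had r = 0.068 between and 0.46 within accessions. SPL15, an age-pathway transcription factor, had r = 0.13, SDG16, a histone methyltransferase gene, had 0.10, and the 3 copies of SPL4, another gene of the age pathway, had -0.052, -0.082 and -0.26. AGL103, a MADS-box gene, was under 1 CPM and not placed. Over 161 genes of the study's module that passed the level filter, the median r was 0.17.

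**Figure D5:**
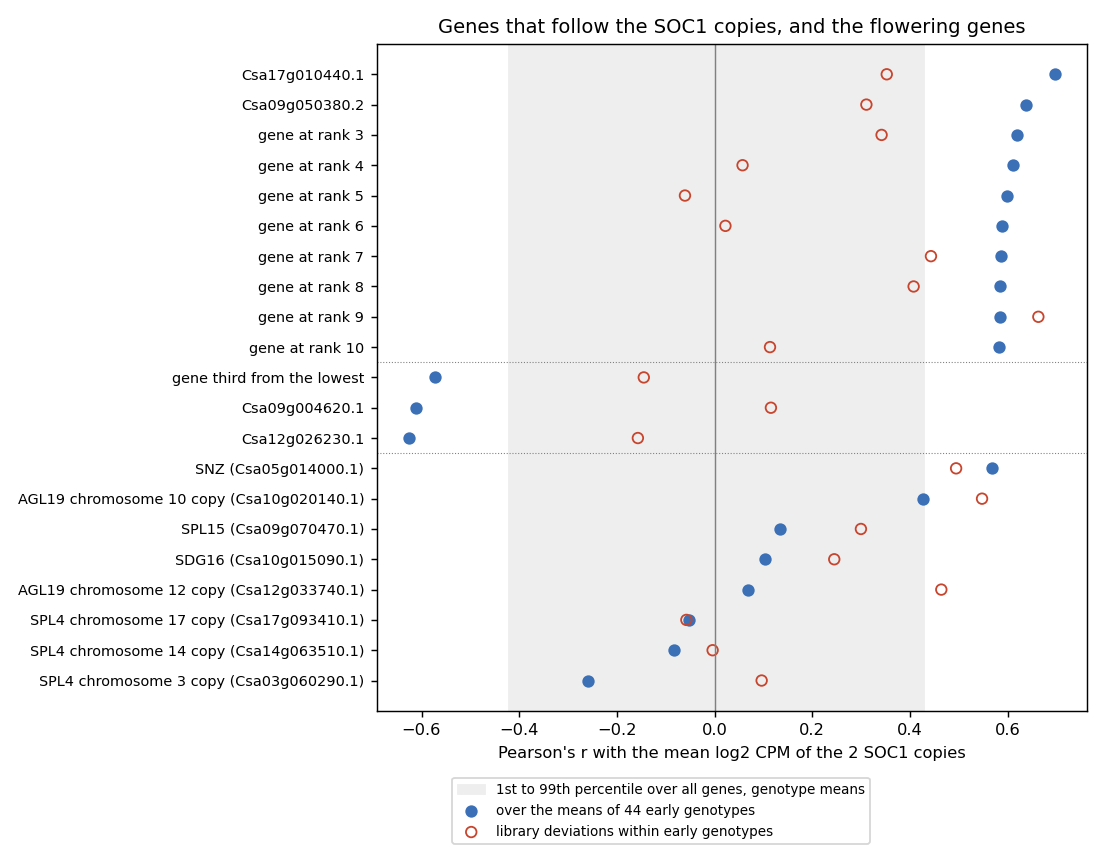
Pearson's r with the mean log2 CPM of both SOC1 copies (x axis) for the 10 highest and 3 lowest genes and for the flowering genes (rows), over the means of 44 early accessions (filled) and over library deviations within them (open). Values of the 10 highest, chosen for r between accessions, are 0.58 to 0.70 there and -0.061 to 0.66 within accessions, and SNZ is at 0.57 and 0.49; the grey band is the 1st to 99th percentile of all genes.

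The flowering genes that the study names were followed across the late accessions as well. Of 9 such genes, 6 were called lower and 0 higher in late accessions (edgeR, adjusted p at most 0.0048), with a median log2 fold change of -1.59 over the 9, where 8.27% of all 52305 genes were called lower and 3142 genes higher. These 6 belong to the module that the study chose on these samples, so their direction is not independent evidence. AGL19 was lower by log2 fold changes of -1.59 (chromosome 10 copy) and -1.96 (chromosome 12 copy), SNZ by -1.79, SDG16 by -1.39, SPL15 by -2.37 and AGL103 by -2.16. The SPL4 copies did not pass, with log2 fold changes of 0.24 (chromosome 3), -0.61 (chromosome 14) and -0.50 (chromosome 17). The chromosome 4 copy of SOC1 had the most negative estimate among these and the chromosome 6 copy lay between SPL15 and AGL103 on one side and AGL19 on the other; differences between genes were not tested.

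In library S001C2D, SNZ was at 3.52 CPM, next to 4.20 to 13.4 CPM in the other libraries of CN 113672, and the chromosome 10 copy of AGL19 was at 5.82 CPM next to 8.43 to 20.1 CPM. In all, 5 of the 9 genes were lower in S001C2D than in each of the other 3 libraries, where 20.2% of all 44792 genes measured there were lowest in it. The chromosome 17 copy of SPL4 was higher in S001C2D, at 9.16 CPM, than in the others, at 1.12 to 4.50 CPM. In CN 113662, SNZ was at 0.935 CPM in Cs035, 5.16 in Cs040 and 5.63 in Cs147. Of the 9 genes, 4 were lower in Cs035 than in both Cs040 and Cs147: SNZ, AGL103 and both AGL19 copies. The chromosome 10 copy of AGL19 was at 2.81, 8.02 and 8.97 CPM in these libraries. The chromosome 12 copy was at 0.312, 1.43 and 2.74 CPM. Other genes of the list were highest in Cs035: SDG16 was at 6.23, 5.44 and 5.47 CPM in these libraries. The chromosome 17 copy of SPL4 was at 3.74, 2.29 and 3.35 CPM. SPL15 was at 1.25, 1.15 and 0.608 CPM, but 0.935 CPM in Cs035 stands for 3 reads. Values this low rest on few reads, so the order of the libraries for SPL15 is not resolved.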

How the data were processed

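Leaf RNA of young seedlings was made into TruSeq libraries, sequenced as read pairs, and, according to the submitters' processing notes, handled with Trimmomatic 0.32, STAR 2.7.10a and featureCounts 2.0.1. The deposited file holds raw counts, which the authors did not normalize, for 94495 transcript rows in 159 libraries. The strand setting is not given in the sources used here, so overlapping genes and near-identical copies are uncertain. All count columns were matched to a labelled sample. The study's names for the SOC1 copies and flowering genes were used, and no sequence or coordinate is shown.

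Libraries under 200000 counts (10 of 159) were left out. CPM values use TMM factors, and log2 CPM a prior count of 2. Counts were summed per accession for the comparison of late with early accessions and for the FT slope, and single libraries were used for differences among early accessions. Each was tested with edgeR 4.0.16 (R 4.3.3, filterByExpr, glmQLFit and glmQLFTest), with Benjamini-Hochberg adjustment over all genes tested and a threshold of 0.05. Each accession was 1 group, and late meant 52 days or more. The SE given with an edgeR estimate is its absolute value divided by the square root of its F statistic. The share was tested by exact permutation over 194580 splits of accessions on the logit with 0.5 reads added to each copy. Other p-values came from 100000 permutations. Correlations, slopes and group differences were tested two-sided, and the scripts were tested on simulated data. The libraries kept hold a median of 4389024 counts, and an early library holds a median of 75 reads of the chromosome 4 copy and 128 of the chromosome 6 copy. No 2 libraries of the same accession agreed within sampling noise (lowest chi-square per gene 1.46 over 159 pairs), so none were merged; libraries of different accessions were not compared. Alternatives were DESeq2 1.42.0 and its size factors, no filter on low counts, all libraries, libraries as replicates, Cs libraries only, Spearman's correlation and leaving out libraries or accessions.

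The genes, lists and tests were chosen with earlier results of these data known. Named genes are both copies, the flowering genes that the study names, and the 10 genes of highest and 3 of lowest r, of which only 2 each are printed because IDs are not paired with names. Named accessions are the late ones and, for each copy and the share, the 3 highest and 3 lowest early ones. CAM 276 as a case of unequal libraries was chosen after its values were seen.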

Additional observations from a re-analysis of the deposited data

Results flagged for a closer look

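Among accessions with 4 to 10 libraries, and over the 4 late accessions, a sample far from the others was looked for by its gap to the nearest value relative to the range. Of 18 groups of values tested 2 had one, where chance gives about 1 in 20. Several of these groups are different measures of the same libraries or accessions, so they are not independent. The 2 are not shown to exceed chance. Library Cs056 of CN 113731 had Csa06g052060.1 at 29.3 CPM, below 43.5, 44.8 and 46.4 CPM in the other 3 libraries, with a gap of 0.829 of the range, which is at the limit for 4 values. Its Csa04g063650.1 level of 15.9 CPM was also the lowest of the 4 libraries. CN 113662 had Csa04g063650.1 at 5.20 CPM, above 0.200, 0.233 and 0.894 CPM in the other late accessions, with a gap of 0.861 of the range.

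Licalla, with 1 library and no FT in the labels, took part in no comparison. Its library of 8286624 counts had Csa04g063650.1 at 19.3 CPM (144 reads) and Csa06g052060.1 at 31.1 CPM (233 reads). The share of Csa04g063650.1 was 38.2% (95% Wilson interval 33.4 to 43.2). All 3 values lie within the range of the early accessions.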

How the results depend on the processing

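Both SOC1 copies stayed lower in late accessions and past the threshold under each of 23 alternatives, with log2 fold changes of -4.97 to -2.79 (Csa04g063650.1) and -2.34 to -1.87 (Csa06g052060.1) in edgeR or DESeq2. The difference in share (19 alternatives), the differences among early accessions (6 per copy, 4 for the share) and the correlation of the copies (6, r of 0.42 to 0.69) kept their direction and passed in each. Within Cs libraries alone, a setting not among those 6, the correlation of the copies was 0.31 and did not pass (permutation p = 0.070). The slopes of both copies on FT kept their sign and did not pass in any of 5. Counts over all genes moved more. Genes lower in late accessions numbered 4326, or 6965 with libraries as replicates, 1725 with Cs libraries only and 2286 to 4820 with an accession or library left out; genes higher numbered 3142, or 5336, 1632 and 1590 to 3842. Genes with a slope on FT numbered 11, or 687 with no filter on low counts and 0 in edgeR without CN 113690 and CAM 219, where 5996 of 50043 genes had an unadjusted p under 0.05. Genes with r of 0.6 or more with both copies numbered 4, or 7 with Spearman's correlation and 2 without replicate 4 of CN 113672 (S001C2D, left out after its levels had been seen), which keep 6 and 5 of the 10 highest genes. The cause of these shifts was not tested. No paired analysis was possible because the labels carry no replicate numbers that the accessions share. Depth limits the chromosome 4 copy most, with a median of 2 reads per late library.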
